A study of Arabidopsis thaliana with 6 samples.

Results

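The genes described here carry the names of the machinery that moves vesicles through the cell. They were picked by symbol with no cut on expression, but with earlier results of these data known. They are the genes of Arabidopsis thaliana whose current symbol begins with SEC and a number, EXO70, SYP and a number, VAMP and a number, or RAB and a letter from A to H, and which had a probe set of their own on the array. Of 13355 genes with such a probe set, 8 met the rule, and all 8 were SEC genes. They were SEC5A (AT1G76850), SEC5B (AT1G21170), SEC6 (AT1G71820), SEC10 (AT5G12370), SEC15A (AT3G56640), SEC15B (AT4G02350), SEC1B (AT4G12120) and SEC22 (AT1G11890). The current gene table holds 110 genes with names of these kinds, among them 23 EXO70, 23 SYP, 11 VAMP and 39 RAB genes, but of these only the 8 SEC genes were paired with an unshared probe set. A further probe set that lists several genes, among them a gene of such a name, was not used. The results therefore speak of 8 SEC genes, 6 of them exocyst subunits, and not of secretion or vesicle traffic as a whole. The SYP and VAMP syntaxins and synaptobrevins, the EXO70 subunits and the Rab GTPases were not analysed here under those names.

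A vesicle that leaves the Golgi for the cell surface is first held at the plasma membrane by the exocyst, a complex of SEC3, SEC5, SEC6, SEC8, SEC10, SEC15, EXO70 and EXO84 subunits, and then fuses there through SNARE proteins, whose pairing is assisted by SEC1-type (SM) proteins. In plants this route delivers wall polysaccharides made in the Golgi and the enzymes of the wall. It also builds the cell plate between dividing cells, and in Arabidopsis the exocyst is known to act in the recycling of PIN auxin carriers and in wall deposition in the xylem. SEC22 acts earlier on the route, as a SNARE between the endoplasmic reticulum and the Golgi.

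The study measured total RNA of stem pieces of 3 mm from wild-type plants of the Col strain, taken 2.5 cm above the base, on 6 Affymetrix arrays with 22810 probe sets each. Plants had 3 weeks of short days with 8 h of light and then long days with 16 h. The 3 arrays of the first group held mock-treated stems, and the 3 of the second held stems given N-1-naphthylphthalamic acid (NPA), a blocker of polar auxin transport, at 10 mg per g for 7 days. By blocking this transport the study set out to induce secondary growth, in which the cambium thickens the stem. Whether replicate samples are different plants is not stated, and p-values reflect no more than the spread among the samples at hand, which can be technical. Values are log2 expression values, differences are NPA minus mock, and 1 unit is a factor of 2. The probe sets of different genes respond differently, so levels of different genes are not compared.

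Mock 1 and NPA 3 stood apart from the other 4 arrays on the second principal component, which held 21.9% of the variance, while the first, with 42.6%, separated the groups. The array medians were higher in NPA by 0.11, which is as large as several of the differences given here. The number of arrays limits the precision. A piece of stem is a mixture of tissues, and a change in the number of cells of a type cannot be told apart from a change in RNA per cell. Markers of the xylem moved with the treatment: all 3 measured of 14 listed (IRX10, IRX15 and IRX15-L) rose, and their mean lay between 8.00 and 8.29 on the mock arrays and between 9.22 and 9.67 on the NPA arrays. The lists were chosen with earlier results of these data known, and xylem is given because it moved. Its rise is therefore not an independent test. The other marker lists, of which the phloem genes went both ways, are given with the processing. The part of a shift of tissues in the values below was not tested.

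None of the 8 SEC genes was called in NPA-treated stems, and 7 of the 8 had a higher mean there. SEC1B came nearest to a call, at 1.42-fold, followed by SEC5A at 1.27-fold and SEC15A at 1.24-fold, and in these 3 every NPA array lay above every mock array. SEC22 was at 1.17-fold, and SEC5B, SEC10, SEC6 and SEC15B lay between 0.97-fold and 1.11-fold. At an adjusted p under 0.05 limma called 0 of 8 higher and 0 of 8 lower, where 2.76% of all 22746 probe sets tested were called higher and 0.242% lower. Without adjustment, at a p below 0.05, 3 of 8 were higher, where 11.4% of all probe sets were, and 0 of 8 were lower, where 4.95% were. The same 3 genes had groups that did not overlap, with NPA higher, as had 14.8% of all probe sets. The shares higher without adjustment and with groups apart are above their backgrounds, but both rest on the same 3 genes. The other shares are 0 of 8. The members were also chosen with earlier results of these data known, so these shares are description only. Without both mock 1 and NPA 3, limma again called 0 of 8, and the differences were 0.39 for SEC1B, 0.41 for SEC5A and 0.44 for SEC15A on the log2 scale, against 0.51, 0.35 and 0.31 with all arrays.

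**Figure D1:**
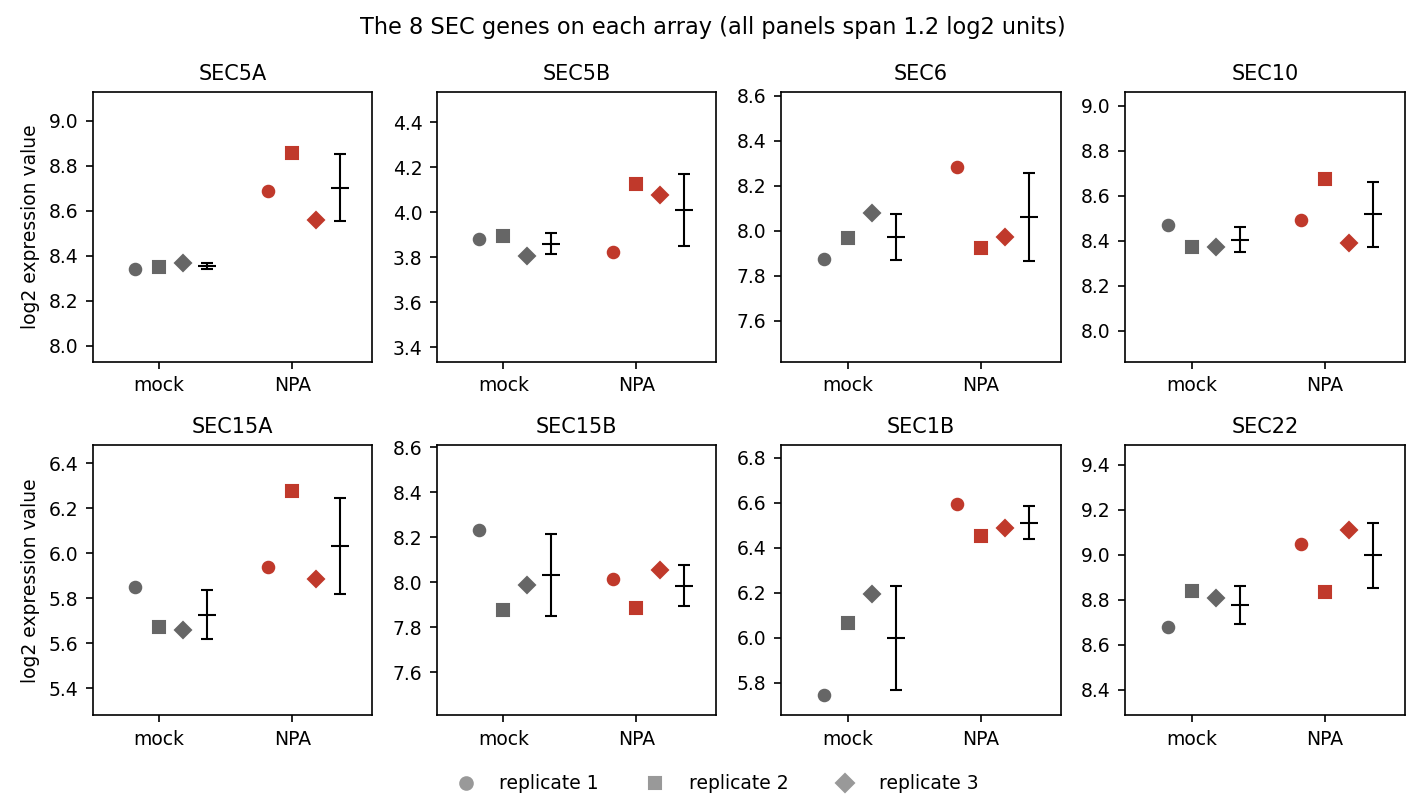
Log2 expression values (vertical axis) of the 8 SEC genes in mock-treated and NPA-treated stems, with a marker shape for each replicate number and the mean ± SD of 3 arrays beside the points. Every panel spans 1.2 log2 units, and SEC5A, SEC15A and SEC1B are the panels in which the groups do not overlap.

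SEC5A encodes a core subunit of the exocyst. Its values were 8.34, 8.35 and 8.37 on the mock arrays and 8.69, 8.86 and 8.56 on the NPA arrays. The mock arrays lay within 0.03 of each other and the lowest NPA array was 0.19 above the highest mock array. The difference was 0.35 with a standard error of 0.10 (95% interval 0.11 to 0.59, adjusted p = 0.146 by limma). SEC5A was thus the exocyst gene with the lowest p, but its difference was smaller than the 0.50 that limma would have called at its spread.

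Its relative SEC5B was dim, below 4.22, the mean of the arrays' lower quartiles, so its distance from background is not known. It read 3.88, 3.89 and 3.81 in mock and 3.82, 4.12 and 4.08 in NPA. NPA 1 lay within the mock values and the other NPA arrays above them, so the groups overlapped. The difference was 0.15 (SE 0.11, 95% interval -0.10 to 0.40, adjusted p = 0.564), and it was 0.24 without NPA 1 and 0.09 without NPA 2.

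SEC15A and SEC15B encode 2 forms of the subunit that in yeast binds the Rab GTPase on the vesicle. In Arabidopsis SEC15A is known mainly for its part in pollen and SEC15B for its part in the plant body. SEC15A read 5.85, 5.67 and 5.66 in mock and 5.94, 6.28 and 5.88 in NPA. NPA 2 was the highest, and the lowest NPA array was only 0.03 above the highest mock array. The difference was 0.31 (SE 0.13, 95% interval 0.00 to 0.61, adjusted p = 0.301), and it was 0.18 without NPA 2. Of 3 measured pollen markers none was called by limma, and none had an unadjusted p below 0.05. SETH3 was at 8.19 in mock and 8.33 in NPA, a difference of 0.14 (adjusted p = 0.716), while AGL66 and AGL104 were below the lower quartile in both groups and differed by -0.05 and -0.07.

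SEC15B read 8.23, 7.88 and 7.99 in mock and 8.01, 7.88 and 8.06 in NPA. The groups overlapped almost wholly, with mock 1 the highest of the 6 arrays. Its difference of -0.05 (SE 0.12, 95% interval -0.32 to 0.23, adjusted p = 0.894) was the only negative one among the 8.

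SEC6 and SEC10 encode 2 more subunits of the exocyst. SEC6 read 7.87, 7.97 and 8.08 in mock and 8.28, 7.92 and 7.97 in NPA. NPA 1 was high and the other NPA arrays lay inside the mock range. The difference was 0.09 (SE 0.12, adjusted p = 0.793), and without NPA 1 it was -0.02.

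SEC10 read 8.47, 8.37 and 8.37 in mock and 8.49, 8.67 and 8.39 in NPA, with NPA 2 the highest and NPA 3 below mock 1. The difference was 0.11 (SE 0.10, adjusted p = 0.658), and it was 0.04 without NPA 2 and 0.18 without NPA 3. SEC10 is known to stand in the Columbia strain as a tandem pair of nearly identical genes, and its probe set is not known to tell the copies apart. Among the 6 exocyst members the median difference was 0.13, and 2 of 6 had groups apart with NPA higher, as had 14.8% of all probe sets. EXO84B (AT5G49830), a further subunit from the listed traffic genes, was at 8.46 ± 0.09 in mock and 8.51 ± 0.04 in NPA (SD, n = 3 each, adjusted p = 0.846), so 6 of 7 exocyst genes had a higher mean and none was called by limma, with 2 of 7 higher without adjustment of p, where 11.4% of all probe sets were.

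SEC1B encodes an SM protein, a partner of syntaxins, and is a close relative of KEULE, which is needed to fuse vesicles into the cell plate. SEC1B read 5.74, 6.06 and 6.19 in mock and 6.59, 6.45 and 6.49 in NPA. The NPA arrays lay within 0.14 of each other, the mock arrays were spread over 0.45 with mock 1 the lowest, and the groups were 0.26 apart. The difference of 0.51 (SE 0.13, 95% interval 0.21 to 0.82) was the largest of the 8 and had the lowest adjusted p, 0.0988. It stood higher than the differences of 95.4% of the 13355 genes, and limma would have called it at 0.64. Without mock 1 the difference was 0.38.

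SEC22 read 8.68, 8.84 and 8.81 in mock and 9.05, 8.83 and 9.11 in NPA. NPA 2 fell within the mock values, just below the highest of them, and the other NPA arrays lay above. The difference was 0.22 (SE 0.11, 95% interval -0.03 to 0.47, adjusted p = 0.369).

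**Figure D2:**
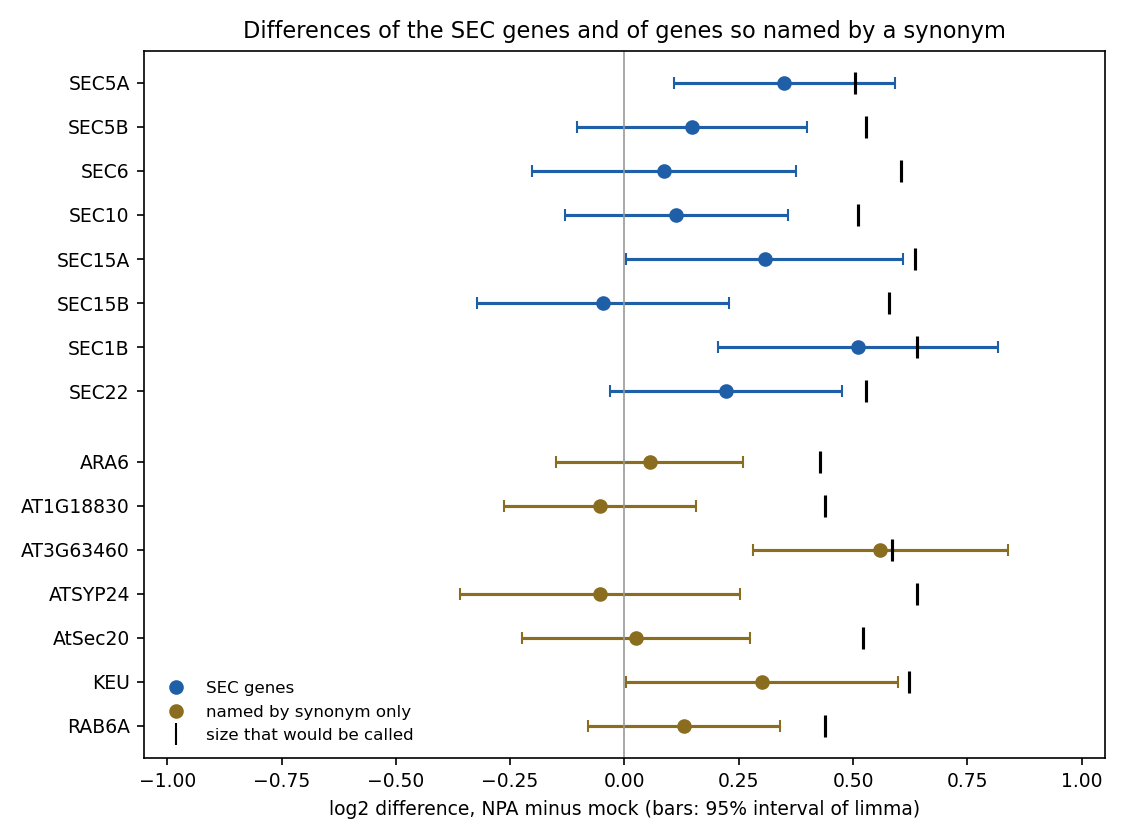
Log2 difference, NPA minus mock, with limma's 95% interval, for the 8 SEC genes (blue) and 7 genes named so only by a synonym (brown). Black ticks give the difference that would have been called at each gene's spread, and no point reaches its tick. AT3G63460 lies closest to it, at 0.56 against 0.58.

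The intervals set limits on what may have been missed. All 8 lay inside a 2-fold change in either direction, with the widest reach at 1.76-fold for SEC1B. SEC5B was dim, and folds of dim genes may be too small, so its interval does not limit the change of its RNA. Given each gene's spread, an observed difference of 1.42-fold (SEC5A) to 1.56-fold (SEC1B) was needed for a call. Smaller observed differences could not be called at this spread with 3 arrays per group. The median difference over the 8 genes was 0.19, against 0.01 over all 13355 genes. Mean values were higher in NPA for 7 of 8, against 51.3% of all genes. Among the 5998 genes above the array medians 56.6% were higher, with a median of 0.04, and among the 5 SEC genes above them 4 were, with a median of 0.11. Centring the arrays on their medians takes the same 0.11 from every gene's difference. It leaves the distance between the SEC genes' median and the all-gene median unchanged. With arrays centred on their medians, the SEC genes' median was 0.08, 6 of the 8 differences stayed positive, and SEC6 joined SEC15B below 0, at -0.02. The differences were then 0.40 for SEC1B, 0.24 for SEC5A, 0.20 for SEC15A, 0.11 for SEC22, 0.04 for SEC5B and 0.0050 for SEC10.

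The highest array was not the same for all genes. For a view over the arrays, each value was set against that gene's own mean over the 6 arrays. NPA 2 held the highest value of SEC5A, SEC5B, SEC10 and SEC15A, NPA 1 that of SEC6 and SEC1B, and NPA 3 that of SEC22. Of the 8 genes, 7 lay above their own mean on NPA 1, 5 on NPA 2 and 6 on NPA 3, against 2, 0 and 1 on mock 1, 2 and 3. The medians of these deviations were -0.10, -0.11 and -0.08 on the mock arrays and 0.11, 0.19 and 0.04 on the NPA arrays. On NPA 3, the median over all genes was 0.05 and so no lower than that of the SEC genes.

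Related genes were also compared within each array, as a log ratio, which a shift of a whole array leaves unchanged. These 3 pairs were picked after the values were seen, and their two-sided exact permutation tests cannot go below p = 0.1. The SEC15A to SEC15B ratio was higher in NPA by 0.35, with groups that did not overlap (exact p = 0.1, adjusted over 3 pairs 0.15). Without NPA 2 the change was 0.18. The SEC1B to KEU ratio was higher by 0.21, also without overlap (exact p = 0.1, adjusted 0.15). In mock this ratio lay within 0.01 of its mean on all 3 arrays, and in NPA it was 0.28, 0.16 and 0.18 above that mean. SEC1B and KEU thus varied together among the mock arrays, with mock 1 the lowest for both. The third pair was SEC5A and SEC5B, whose ratio is not read here because SEC5B is not known to stand above background.

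**Figure D3:**
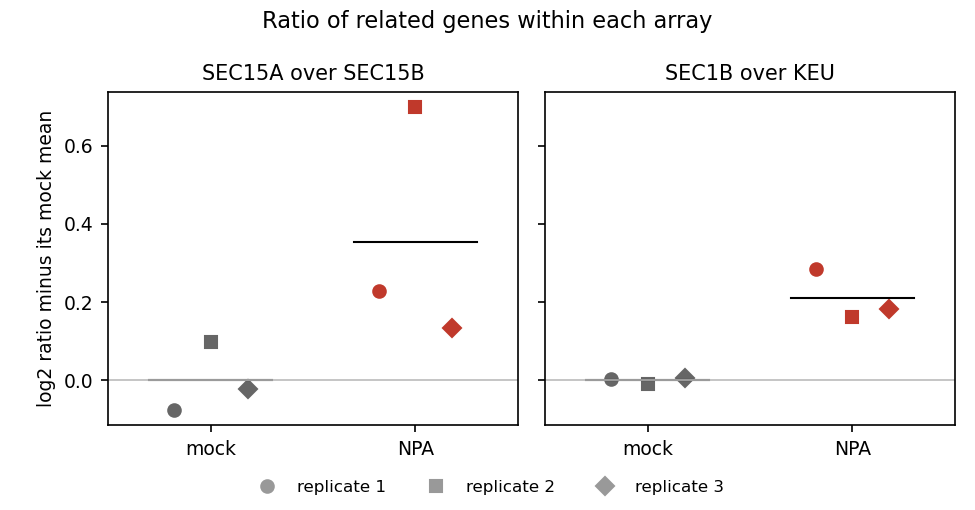
Log2 ratio of related genes within each array, minus the mean ratio of the 3 mock arrays (vertical axis), by treatment, with a marker shape for each replicate number and lines at group means. The groups are apart for SEC15A over SEC15B and for SEC1B over KEU, and NPA 2 is the highest for the first, 0.70 above the mock mean.

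Another 7 genes carry a name of these kinds only as a synonym, and were added after the data were examined. AT3G63460, listed as SEC31B, of the outer coat of the vesicles that leave the endoplasmic reticulum (COPII), read 7.239, 7.203 and 7.308 in mock and 7.66, 8.04 and 7.73 in NPA. All 3 NPA arrays lay above all mock arrays. Its difference of 0.56 (SE 0.12, 1.47-fold, adjusted p = 0.0568) was larger than that of any of the 8 SEC genes. The other listed SEC31 gene, AT1G18830 (SEC31A), was below the lower quartile at 3.75 ± 0.09 and 3.70 ± 0.02 (SD, n = 3 each).

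KEU, the KEULE gene, read 8.35, 8.68 and 8.80 in mock and 8.92, 8.90 and 8.92 in NPA, without overlap, a difference of 0.30 (SE 0.13, adjusted p = 0.301). The Golgi and endosome GTPase genes RAB6A (RABH1b) and ARA6 (RABF1) differed by 0.13 and 0.06. AtSec20, of a SNARE of the endoplasmic reticulum, differed by 0.03, and ATSYP24, a dim syntaxin gene, by -0.05. None of the 7 was called by limma, with 2 of them higher at an unadjusted p below 0.05, where 11.4% of all probe sets were, and over all 15 genes the median difference was 0.13.

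**Figure D4:**
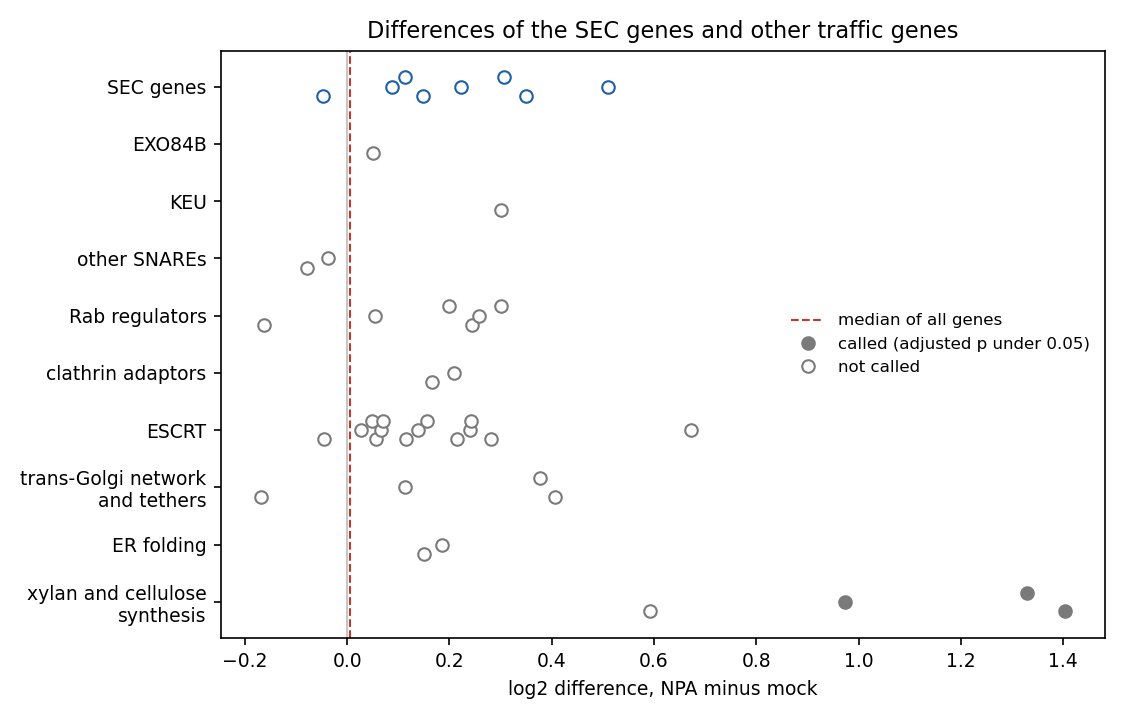
Log2 difference, NPA minus mock, of each SEC gene and of each measured gene in lists of other traffic genes and of xylan and cellulose synthesis, with filled points for called genes. The dashed line is the median of all genes, 0.01. Only 3 points are filled, all of them genes of xylan synthesis.

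Other genes of vesicle traffic were taken from lists. Of 275 entries in 13 lists, 32 genes in 8 lists were measured, and 2 of them, KEU and ARA6, were described above. Limma called none of them. Without adjustment of p, 6 were higher and none was lower at 0.05, against 11.4% and 4.95% of all probe sets. A higher mean was seen in 27 of 32, against 51.3% of all genes, with a median difference of 0.15. The groups were apart with NPA higher in 11 of 32 and with NPA lower in 3 of 32, against 14.8% and 7.45% of all probe sets. The 3 lower ones were MAG2, of a tether at the endoplasmic reticulum, at -0.17 (adjusted p = 0.431), VPS9B, of a family of activators of endosomal Rab GTPases, at -0.16 (adjusted p = 0.443), and the SNARE gene YKT61 at -0.08 (adjusted p = 0.707). Of 14 measured genes of the ESCRT complexes, which sort membrane proteins into vesicles inside late endosomes, 13 had a higher mean, with a median of 0.13. VPS2.2 stood out among them at 4.60 ± 0.17 in mock and 5.27 ± 0.29 in NPA (SD, n = 3 each), a difference of 0.67 (SE 0.17, adjusted p = 0.0867). The next lowest p in that list was that of AT5G04920 (VPS36), at 0.28 (adjusted p = 0.260).

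VHA-A1, a subunit of the proton pump of the trans-Golgi network, differed by 0.38 (adjusted p = 0.198). Of 6 measured genes in the list of Rab regulators, which also holds the Rab gene ARA6, AT1G16020 (CCZ1A), part of an activator of late endosomal Rab7, had the lowest p, at 0.30 (adjusted p = 0.262). CLUB, a subunit of the TRAPPII complex needed for the cell plate, followed at 0.26 (adjusted p = 0.284). AT5G46630 (AP2M), an adaptor of clathrin at the plasma membrane, differed by 0.21 (adjusted p = 0.340), and CRT1b, a calreticulin of the endoplasmic reticulum, by 0.18 (adjusted p = 0.534). Lists for COPI and its ARF switch, COPII partners, ARF GTPase-activating proteins, retromer and patellins had 0 measured genes.

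Of 26 listed genes of cellulose and xylan synthesis, whose products or enzymes travel this route, 4 were measured. Of these 4, 3 were called higher, where 2.76% of all probe sets were. The 3 differed by 0.97 to 1.40 with adjusted p up to 0.0138, more than any measured gene of the route. They are the xylan genes named above as xylem markers, so this is the same observation given again. This list too was chosen with earlier results of these data known, so the contrast is not an independent test. COB, which encodes a cell-surface protein that orients cellulose, differed by 0.59 (adjusted p = 0.138). The largest difference among the SEC genes was 0.51. Whether the traffic genes and the wall genes differ in their response was not tested.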

How the data were processed

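The deposited values are log2 expression values of 22810 probe sets on 6 arrays, made by the authors with RMA. Both RMA and limma are named in the submitters' processing notes, with no version. RMA corrects the background, equalizes the distributions of the arrays and summarises the probes of each set. The deposited arrays were nevertheless not fully equalized, with medians from 6.18 (mock 1) to 6.39 (NPA 3). The reason is not stated. With quantile normalization once more, the median difference over the SEC genes was 0.17. RMA gives no detection call, so dim values have no known distance from background, and folds of dim genes may be too small. How probe sets were defined and later filters are not stated. The sample titles gave the group and number of each array.

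The 64 control probe sets were left out. NPA minus mock was fitted over the other 22746 with limma 3.58.1 (lmFit, eBayes; R 4.3.3), p-values were adjusted over all of them by Benjamini-Hochberg, and genes were called at an adjusted p under 0.05. Standard errors and 95% intervals are limma's, the intervals unadjusted, and all adjusted p-values are limma's unless given as adjusted over 3 pairs. The fit was checked on simulated data with changes larger than any difference of the SEC genes, so the check does not cover differences of their size. Gene names came from the gene table of the platform, updated through the TAIR10.1 gene table. Of the probe sets tested, 13513 had exactly 1 gene, 503 several and 8730 no listed gene, so a gene without a value here may still be on the array. A gene with several probe sets was read from the one with the highest mean, but each of the 8 members had 1.

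Members and lists were chosen with earlier results of these data known. Of the list entries, 4 were taken out because their symbol now belongs to another gene. The rule for named genes took called members, the 2 lowest p and the highest and lowest level in each group of members, and the lowest p of each other list. SEC6, SEC10, SEC15B and most genes of the wider naming are given outside it, so that every member has its values. Of the marker lists, xylem is given because it moved with the treatment, and pollen beside SEC15A. In the others, limma called 1 of 2 measured phloem genes higher, where 2.76% of all probe sets were. The other phloem gene, SWEET11, differed by -0.95 (adjusted p = 0.0909). Limma called 0 of 4 stomatal genes, with 1 lower without adjustment, where 4.95% of all probe sets were. It called 0 of 3 green cortex genes (0 without adjustment). All 3 of these had a higher mean, against 51.3% of all genes. Among them PRK, at 0.41 (adjusted p = 0.347), had groups apart with NPA higher, as had 14.8% of all probe sets. The number of epidermal genes measured was 0. Plots were made with Python 3.11.15 and matplotlib 3.10.9. Alternatives tried were quantile normalization once more, a replicate block, median centring, trended and robust eBayes, only the brighter probe sets, no probe sets ending in _s_at or _x_at, averages over several probe sets of a gene, other thresholds and each array left out. The wider naming, mock 1 and NPA 3 left out together, and the ratios of related genes, with arrays left out of them too, were added after the data were examined.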

Additional observations from a re-analysis of the deposited data

How the results depend on the processing

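The count of SEC genes called by limma was 0 in either direction under every alternative but an adjusted p under 0.1, where 1 gene, SEC1B, was called higher. Among the brighter probe sets SEC1B, SEC15A and SEC5B were not tested, so they could not be called there. Over the alternatives the adjusted p of SEC1B ran from 0.0947 to 0.228, that of SEC5A from 0.116 to 0.340 and that of SEC15A from 0.235 to 0.581, and all 3 kept a positive difference. The median difference over the SEC genes was 0.076 with arrays centred on their medians, 0.114 among the brighter probe sets, where 5 of the 8 remained, and 0.130 with the wider naming, and it ranged from 0.167 to 0.218 with single arrays left out. With single arrays left out, the SEC6 difference ran from -0.024 (without NPA 1) to 0.155 and the SEC15B difference from -0.124 to 0.053 (without mock 1), with 0.0033 without NPA 2. The SEC6 difference was -0.021 with centred arrays, and that of SEC15B was 0.017 without mock 1 and NPA 3. The cause was not tested. AT3G63460 was called among the brighter probe sets (adjusted p = 0.0460), where fewer probe sets are tested.

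The replicate numbers are shared by the groups but the labels give them no meaning, and deviations of same-numbered arrays correlated at -0.26, 0.05 and 0.04, so they were not taken as pairs. With the replicate block 0 SEC genes were called in either direction, the median difference stayed at 0.19, and calls over all probe sets went from 683 to 449. Depth is not defined for arrays. The spread of 3 arrays per group limited calls of the SEC genes to differences of at least 1.42-fold to 1.56-fold.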
